A study of Mus musculus with 2 samples.

Results

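This section follows 10 genes of clathrin-mediated endocytosis, out of 14714 genes in the deposited count table: the epsins Epn1 and Epn2, the coat partners Eps15, Picalm, Itsn1 and Itsn2, the scission enzyme Dnm2, and the clathrin chains Clta, Cltb and Cltc. They were chosen by name, and all 10 were found in the table. The samples were cells of digested aortas of mice after 12 weeks on a western diet, read as 3' tags in 10x droplets with unique molecular identifiers (UMIs). There was 1 library per genotype: an Apoe knockout library, and a library of an inducible, endothelial double knockout that also lacks Apoe, below the double knockout. Both groups therefore share the Apoe knockout and the diet. From knowledge of this line the deleted genes are Epn1 and Epn2, which the labels do not spell out. The labels therefore do not give whether each of these genes is deleted in endothelial cells only or in all cells. They also do not give the driver of the deletion or the number of mice per library. The protocol names CD31 microbeads, while the cell type label reads all cells.

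Clathrin-mediated endocytosis takes receptors and their cargo from the cell surface into the cell. Epsins bind membrane lipid, ubiquitinated cargo and clathrin, and join a forming pit together with Eps15 and the intersectins; clathrin triskelia, made of heavy and light chains, then form the coat, and dynamin cuts the vesicle free. In endothelial cells this route is known to carry VEGF receptors and other signalling receptors.

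The libraries differed in depth, with a median of 3770 UMIs per cell over 2428 Apoe knockout cells and 769 over 5489 double knockout cells. Levels are given as CPM, the UMIs of a gene per 1000000 UMIs of a cell population, with intervals at the 95% level that cover counting error only, and a difference between 2 libraries cannot be told apart from a difference between genotypes. A 3' tag count does not grow with transcript length, and capture differs between genes, so levels are compared between cells for 1 gene and not between genes. Fewer cells of a type and less RNA per cell cannot be told apart where cells are pooled. A gene was called higher or lower when its ratio was at least 1.5 either way with an interval that did not hold 1, out of genes with at least 20 UMIs over both sides. The compared populations were endothelial cluster 9 (96 Apoe knockout and 287 double knockout cells), smooth muscle (1516 and 4348 cells) and the macrophage cluster 13 (144 and 53 cells), with the authors' class names and cluster numbers. Cluster 9 held 12 endothelial markers at a summed 2588 and 4764 CPM, against 104 and 120 CPM in smooth muscle. It also held smooth muscle markers, 9 genes at 30395 and 28434 CPM, against 49156 and 51474 CPM in smooth muscle itself.

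Epn1 lies at chr7:5080235-5098178 on the plus strand and Epn2 at chr11:61517249-61579687 on the minus strand (GRCm38, GENCODE). The 250 bases before their starts are shown because the levels of these 2 genes differed in opposite ways between cell types, as given below. All 10 genes matched a RefSeq window, and the sequences are from RefSeq (GRCm38.p6, chr7:5079985-5080234 plus strand and chr11:61579688-61579937 minus strand), written 5' to 3' in the direction of the gene. Capitals mark the GC box GGGCGG and the E-box CACGTG, searched on both strands.
Epn1: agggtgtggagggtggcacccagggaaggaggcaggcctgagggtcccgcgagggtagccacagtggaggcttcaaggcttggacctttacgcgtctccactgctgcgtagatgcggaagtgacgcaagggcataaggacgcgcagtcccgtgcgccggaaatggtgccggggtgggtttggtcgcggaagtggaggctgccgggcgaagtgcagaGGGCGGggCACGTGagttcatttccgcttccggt
Epn2: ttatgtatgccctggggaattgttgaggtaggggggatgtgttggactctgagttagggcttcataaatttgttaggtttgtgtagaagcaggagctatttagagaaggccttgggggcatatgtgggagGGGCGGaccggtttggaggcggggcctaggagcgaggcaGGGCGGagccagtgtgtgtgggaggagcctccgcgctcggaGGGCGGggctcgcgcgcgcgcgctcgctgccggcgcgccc
The Epn1 window held 1 GC box and 1 E-box, and that of Epn2 held 3 GC boxes and no E-box. A GC box was found in 32.7% and an E-box in 6.02% of 32851 RefSeq windows of this length. These matches describe letters in a window and say nothing about which factor binds.

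In endothelial cluster 9, Epn1 had 9 UMIs in the Apoe knockout library and 2 UMIs in the double knockout library, or 33.7 CPM (15.4 to 64.0) and 7.95 CPM (0.962 to 28.7). At least 1 Epn1 UMI was found in 8 of 96 and in 2 of 287 cells, whose median depths were 2133 and 711 UMIs. With 11 UMIs in all, the ratio of 0.236 had an interval from 0.0248 to 1.14, and Epn1 was under the minimum for a call. The 3' tags read the end of the transcript, so they do not check the removal of an upstream exon. Of the 6 Epn1 UMIs of the whole double knockout EC class, 2 were in cluster 9 and 4 in cluster 19. The 14 of the Apoe knockout EC class were 9 in cluster 9, 1 in cluster 19 and 4 in the 26 cells of cluster 20. The class as a whole stood at 15.6 CPM (5.73 to 34.0) against 39.1 CPM (21.4 to 65.6) in the Apoe knockout library. Cluster 19 of the double knockout library stood at 38.8 CPM (10.6 to 99.3). That is 4.88 times its cluster 9 level, with an interval from 0.699 to 54.0 that held 1. The part of the mix of clusters in the class levels was not tested.

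Epn1 ratios below 1 were found in cluster 9 and in other clusters. Over the 18 clusters with at least 50 cells in both libraries, Epn1 was higher in the double knockout library in 8 and lower in 10. The lowest ratio was that of cluster 9, at 0.202 (0.0215 to 0.946) over all its cells. It rested on 10 and 2 UMIs, under the minimum for a call, and the EC cells of the cluster alone had an interval that held 1. Cluster 3, in which all cells were classed as smooth muscle, had 40 Epn1 UMIs in the Apoe knockout library and 7 in the double knockout library. These counts equal 27.0 CPM and 10.2 CPM, with the ratio at 0.377 (0.142 to 0.850). It was the 1 cluster of 13 with enough Epn1 UMIs in which the gene was called. Of 105226 pairs of a gene and a single cluster with enough UMIs, 7.84% were called higher and 6.77% lower. The 1 call of Epn1 in 13 clusters was thus near the background, and every call in a single cluster below stands beside these shares. Smooth muscle as a whole was at 29.3 CPM (251 UMIs) and 27.4 CPM (150 UMIs), which gives 0.933 (0.757 to 1.15). The Epn1 ratio in cluster 9 divided by that in smooth muscle was 0.253, with an interval from 0.0263 to 1.25, so a difference between the cell types was not detectable at this depth. The 10 macrophage markers summed to 2202 CPM in cluster 9 of the Apoe knockout library and to 43.7 CPM in that of the double knockout library, where 7 of them were at 0. Other markers in cluster 9 moved as well: from the Apoe knockout to the double knockout library, 9 fibroblast markers stood at 5000 and 1383 CPM, 7 chondrocyte-like markers at 483 and 47.7 CPM, 6 cycling markers at 386 and 43.7 CPM and 4 erythroid markers at 0 and 683 CPM. The part of these cells in the cluster 9 ratios of Epn1, Picalm and Clta was not tested.

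Epn2, the second epsin and from knowledge of this line also a deleted gene, had ratios above 1 in cluster 9 and smooth muscle that were not called. As for Epn1, the 3' tags do not check the removal of an upstream exon. The level of Epn2 therefore does not show whether the gene was deleted, in endothelial cells or in others. In cluster 9 it had 20 UMIs (74.9 CPM) in the Apoe knockout library and 25 UMIs (99.3 CPM) in the double knockout library, a ratio of 1.33 whose interval, 0.707 to 2.52, held 1. Smooth muscle had 698 UMIs (81.5 CPM) and 612 UMIs (112 CPM), a ratio of 1.37 (1.23 to 1.53), under the size needed for a call. Epn2 was higher in the double knockout library in 17 of the 18 clusters, and in cluster 15 its ratio was 0.865. It was called higher in 2 of the 16 clusters with enough UMIs, cluster 11 at 1.60 (1.11 to 2.30) and cluster 17 at 1.85 (1.05 to 3.22). Of 10072 genes with at least 100 UMIs over these clusters, 3.66% were higher in at least 17, and the clusters of a library share 1 preparation, so they are not replicates.

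The epsins differed between macrophages and smooth muscle of the Apoe knockout library, a comparison chosen after its values were seen. In the Apoe knockout library, macrophage cluster 13 had 56 Epn1 UMIs, 64.7 CPM (48.9 to 84.1), against 29.3 CPM in smooth muscle, a ratio of 2.21 (1.62 to 2.96). Epn2 had 16 UMIs there, 18.5 CPM (10.6 to 30.0), against 81.5 CPM, a ratio of 0.227 (0.129 to 0.371). Epn1 thus made up 77.8% (66.4 to 86.7) of the epsin UMIs in these macrophages, against 26.4% (23.7 to 29.4) in smooth muscle and 31.0% (15.3 to 50.8) in cluster 9. Across the 18 Apoe knockout clusters of at least 50 cells the share ran from 15.6% in cluster 16 to 43.1% in cluster 14, with cluster 13 alone above that. Macrophage markers stood at 19599 CPM in cluster 13 and smooth muscle markers at 12366 CPM. With both directions counted, 5 of the 10 genes were called between these populations, beside 40.3% of 11655 genes tested (17.0% higher and 23.3% lower), so the number of calls was near the background.

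In the double knockout library the same comparison could not be read. Cluster 13 held 1 Epn1 and 3 Epn2 UMIs there. Its macrophage markers came to 5060 CPM, with Adgre1 and Fcgr1 at 0, and its smooth muscle markers to 35602 CPM. None of the 10 genes was called, beside 4.02% of 10353 genes tested (2.96% higher and 1.06% lower). Between the libraries, 1 of the 9 genes with enough UMIs in cluster 13 was called: Cltb was higher in the double knockout, with 53 and 8 UMIs and a ratio of 2.67 (1.10 to 5.66). The background there was 8.33% higher and 5.62% lower of 5537 genes tested. In smooth muscle Epn1 made up 19.7% (16.9 to 22.7) of the epsin UMIs of that library, and in cluster 9 it made up 7.41% (0.910 to 24.3).

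**Figure D1:**
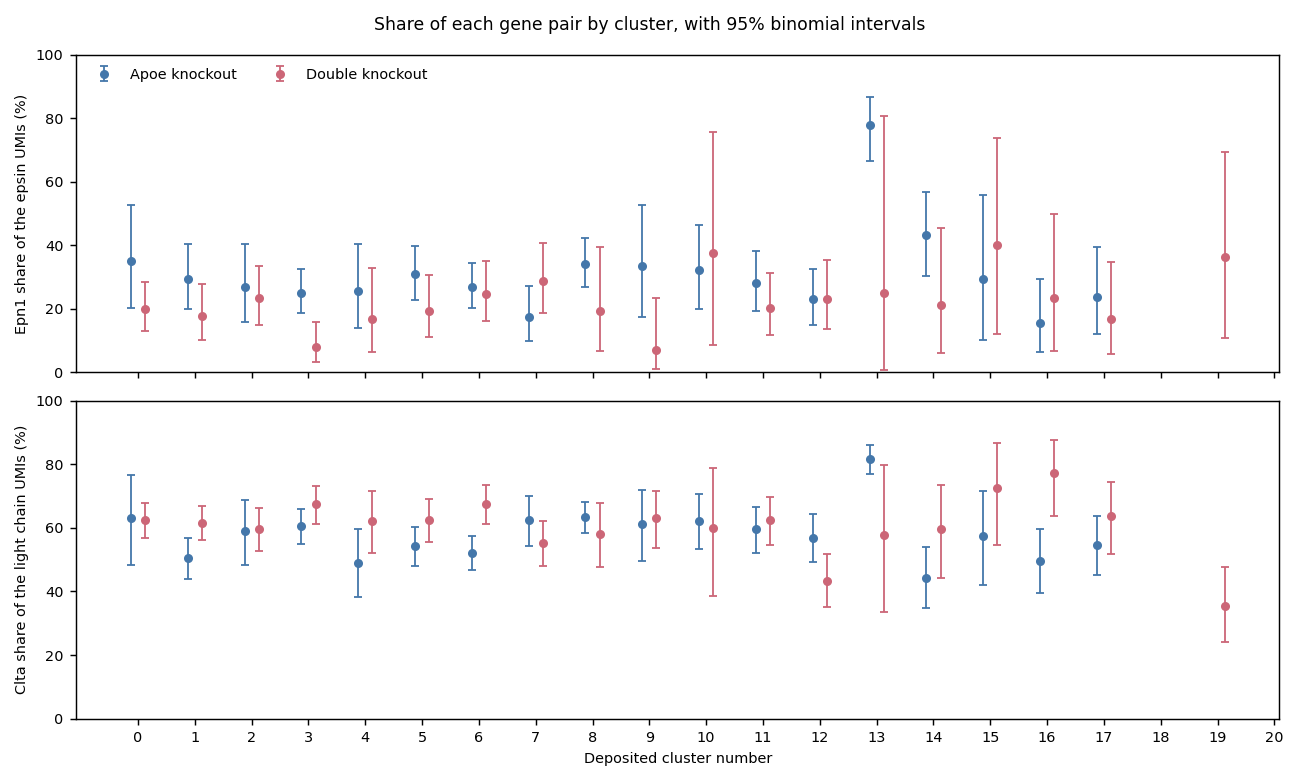
Share of Epn1 in the summed Epn1 and Epn2 UMIs (top, percent) and of Clta in the summed Clta and Cltb UMIs (bottom, percent) in each deposited cluster with at least 50 cells, by library; points are shares and bars 95% binomial intervals. Cluster 13 of the Apoe knockout library stands at 77.8% and 81.8%, and cluster 19 of the double knockout library at 35.3% Clta.

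By class, Epn1 in the Apoe knockout library ran from 63.0 CPM in immune cells through 44.2 CPM in fibroblasts, 39.1 CPM in the EC class and 31.3 CPM in the class named modEC to 29.5 CPM in the SMC class. Each neighbouring pair in that order had a ratio whose interval held 1. For Epn2 the order was SMC at 81.2 CPM, modEC at 74.0 CPM, EC at 64.3 CPM, fibroblasts at 60.7 CPM and immune cells at 21.0 CPM. Here the step from fibroblasts to immune cells had a ratio of 2.89 (1.60 to 5.38), and the other steps held 1. In the double knockout library no step of either gene had an interval without 1. The Epn2 profile over clusters was most like those of Zbtb20, Col4a2 and Xpr1, by Pearson's r of log2 levels over 18 Apoe knockout and 19 double knockout clusters, out of 2785 genes. For Zbtb20, a transcription factor, r was 0.87 and 0.85, and 0.47 and 0.75 without the 2 clusters farthest from the median Epn2 level. For Col4a2, a chain of basement membrane collagen, r was 0.85 and 0.90, and 0.36 and 0.83 without those clusters. The likeness of both genes in the Apoe knockout library thus rested in large part on those clusters, while Xpr1 had 0.64 and 0.67 without them. Clusters of a library share its depth and its free RNA. The genes most like Epn1 (Nono, Hnrnpc and Psmd2) reached r from 0.40 to 0.48 only.

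**Figure D2:**
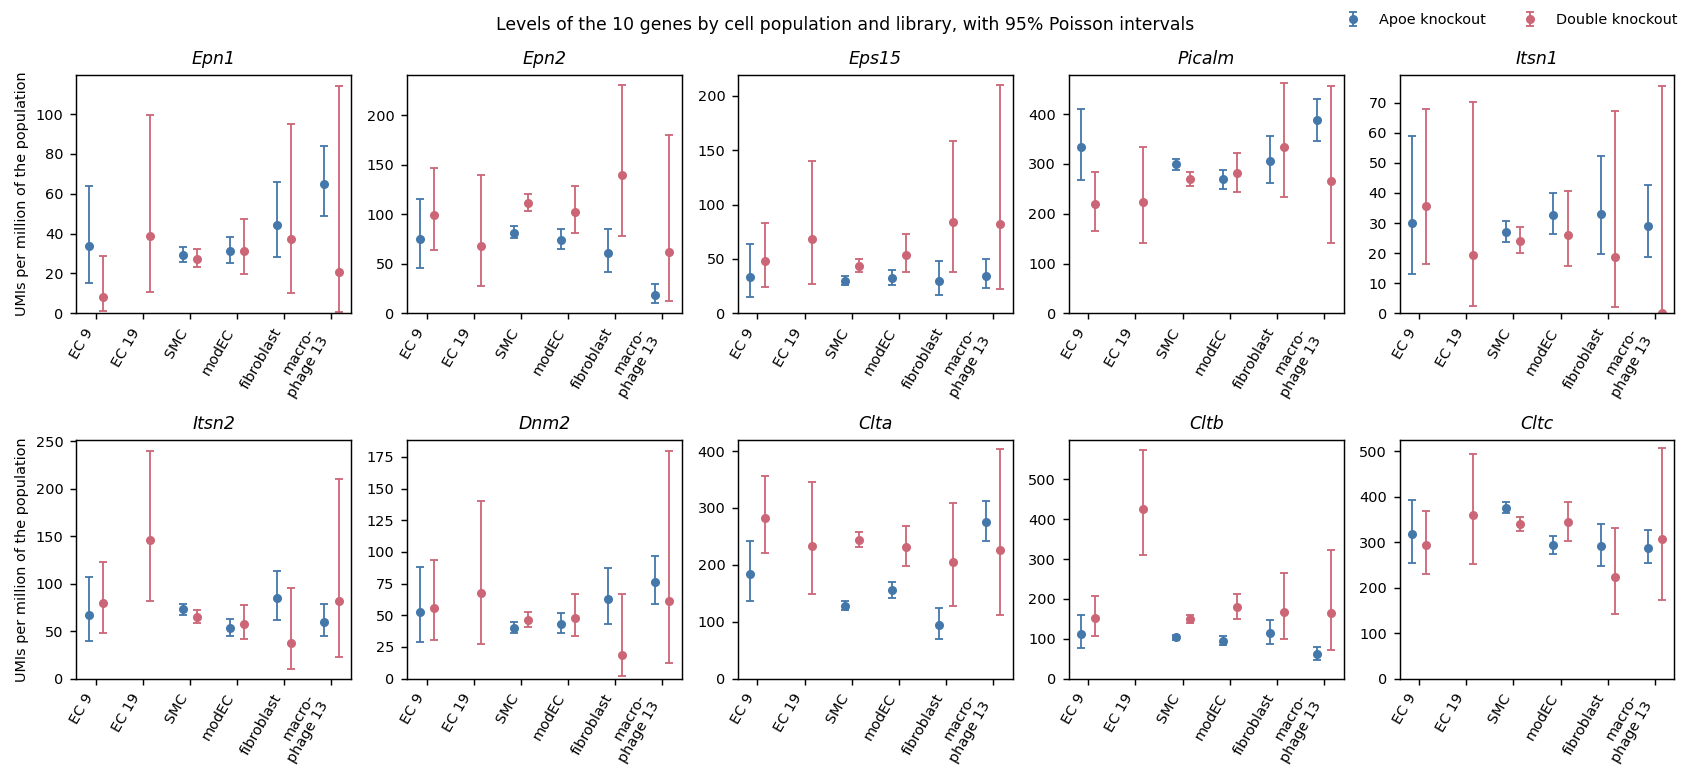
Level of each of the 10 genes (CPM) in 6 populations of each library, for populations with at least 50 cells; points are levels and bars 95% Poisson intervals. Endothelial cluster 19 is drawn for the double knockout library only, where Cltb stands at 427 CPM, and the fibroblast and macrophage intervals of that library are wide.

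Eps15, a scaffold that epsins bind, and Picalm, an adaptor that recruits clathrin to the membrane, had ratios on opposite sides of 1. Eps15 had 9 and 12 UMIs in cluster 9 (33.7 and 47.7 CPM), with the ratio at 1.41 (0.547 to 3.80). For smooth muscle the counts were 257 and 239 UMIs (30.0 and 43.6 CPM) and the ratio 1.45 (1.21 to 1.74), and in 15 of 18 clusters it was higher in the double knockout library. A count of at least 15 was reached by 10.3% of the genes. Eps15 was called higher in 3 of the 15 clusters with enough UMIs, which were cluster 11 at 2.18 (1.15 to 4.15), cluster 12 at 2.95 (1.45 to 6.16) and cluster 14 at 2.82 (1.13 to 6.71).

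Picalm was called lower in cluster 9, where 89 UMIs (333 CPM) in the Apoe knockout library stood against 55 UMIs (219 CPM) in the double knockout library, a ratio of 0.656 (0.460 to 0.928). The call did not hold in all treatments of depth, nor over all cells of cluster 9 whatever their class, where the ratio was 0.683, under the size for a call. With each cell thinned to 1000 UMIs the log2 ratio was 0.20 rather than -0.61. Smooth muscle held 2560 and 1476 Picalm UMIs (299 and 269 CPM), which gives a ratio of 0.901 (0.844 to 0.960). In single clusters Picalm was called lower in cluster 15 alone, at 0.577 (0.334 to 0.958). The Picalm ratio in cluster 9 over that in smooth muscle was 0.728 with an interval from 0.507 to 1.04, which held 1. Picalm is overlapped on its own strand by 4 predicted genes, so its reads can be shared with them. Epn2, Eps15, Itsn1, Itsn2 and Dnm2 overlap genes on the other strand; the sources used here do not give whether counting used strand.

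The intersectins Itsn1 and Itsn2, scaffolds that link the coat to dynamin and actin, were not called in cluster 9 or in smooth muscle as a whole, and were called in single clusters. Itsn1 had 8 and 9 UMIs in cluster 9 and 27.1 and 24.1 CPM in smooth muscle, where the ratio was 0.889 (0.712 to 1.11). Itsn2 had 18 and 20 UMIs in cluster 9 and 73.0 and 64.9 CPM in smooth muscle, where the ratio was 0.890 (0.779 to 1.01). Itsn1 was called lower in cluster 0, at 0.286 (0.128 to 0.636), and cluster 3, at 0.489 (0.220 to 0.987), and higher in cluster 5, at 2.40 (1.21 to 4.81). Itsn2 was called lower in cluster 5, at 0.494 (0.303 to 0.775).

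Dnm2, the ubiquitous dynamin, had 14 UMIs in cluster 9 of each library (52.4 and 55.6 CPM). Its smooth muscle level was 40.2 and 46.1 CPM, and the ratio 1.15 (0.973 to 1.36). It was called higher in 1 cluster, cluster 5, at 1.91 (1.13 to 3.21). In Apoe knockout macrophages it was at 76.3 CPM (66 UMIs), 1.90 times (1.44 to 2.48) its smooth muscle level.

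Of the 10 genes, the clathrin light chain Clta had the highest ratio between the libraries in smooth muscle. Clta (chr4:44004452-44032846, plus strand) and Cltb (chr13:54592401-54611344, minus strand) encode the light chains, which regulate the coat, and Cltc (chr11:86694351-86757565, minus strand) the heavy chain that forms its legs. The 250 bases before a RefSeq start of each are shown because the light chains had smooth muscle ratios above 1 and the heavy chain below 1 (chr4:44004193-44004442, chr13:54611374-54611623 and chr11:86757568-86757817). Capitals mark GGGCGG and, in Cltb, the cAMP response element TGACGTCA.
Clta: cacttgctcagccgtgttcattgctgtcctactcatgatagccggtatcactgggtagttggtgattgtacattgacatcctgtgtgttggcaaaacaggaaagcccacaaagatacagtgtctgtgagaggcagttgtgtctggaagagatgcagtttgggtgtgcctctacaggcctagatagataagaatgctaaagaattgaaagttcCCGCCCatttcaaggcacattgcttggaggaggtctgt
Cltb: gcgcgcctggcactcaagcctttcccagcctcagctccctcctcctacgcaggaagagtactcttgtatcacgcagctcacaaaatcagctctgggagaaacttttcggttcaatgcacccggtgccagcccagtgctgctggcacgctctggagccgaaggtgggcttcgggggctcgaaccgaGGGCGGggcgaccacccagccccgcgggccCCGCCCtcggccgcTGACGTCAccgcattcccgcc
Cltc: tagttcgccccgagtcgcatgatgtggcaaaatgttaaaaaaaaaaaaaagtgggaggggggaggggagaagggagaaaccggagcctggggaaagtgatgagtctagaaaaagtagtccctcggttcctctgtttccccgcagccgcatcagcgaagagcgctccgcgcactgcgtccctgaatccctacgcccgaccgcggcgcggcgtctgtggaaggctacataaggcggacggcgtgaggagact
Clta held 1 GC box, Cltb held 2 and the element TGACGTCA, which 1.55% of all windows hold, and Cltc held none of these letters. Clta has a second RefSeq start, whose window overlaps an annotated exon and is not shown. That second window held no GC box, so the Clta count depends on the start.

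In smooth muscle Clta rose from 1097 UMIs, 128 CPM (121 to 136), in the Apoe knockout library to 1338 UMIs, 244 CPM (231 to 257), in the double knockout library. The ratio was 1.91 (1.76 to 2.07). Cltb had 885 UMIs (103 CPM) and 816 UMIs (149 CPM), a ratio of 1.44 (1.31 to 1.59), under the size for a call. Cltc had 3221 UMIs (376 CPM) and 1866 UMIs (340 CPM), a ratio of 0.905 (0.854 to 0.958). Clta was the 1 gene of the 10 called in smooth muscle, beside 17.5% of 11941 genes tested (9.87% higher and 7.67% lower). The ratio of light chain to heavy chain UMIs was 0.615 (0.582 to 0.651) in the Apoe knockout and 1.15 (1.08 to 1.23) in the double knockout smooth muscle cells.

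The direction in single clusters was counted for all 3 chains. Clta was higher in the double knockout library in 17 of 18 clusters, with ratios from 0.819 in cluster 13 to 2.55 in cluster 4 and a median of 1.71. Cltb was higher in 16 of 18, with a median ratio of 1.48, and Cltc in 8 of 18, with a median ratio of 0.946. Clta was called higher in 13 and Cltb in 6 of these clusters, and Cltc was called lower in 1, cluster 15, at 0.550 (0.343 to 0.856). At least 16 clusters were reached by 6.48% of the genes. Over all cells, Clta (144 and 243 CPM, ratio 1.69) and Cltb (99.0 and 155 CPM, ratio 1.57) were called higher and none of the 10 genes lower, beside 9.53% higher and 13.1% lower of 13257 genes tested.

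**Figure D3:**
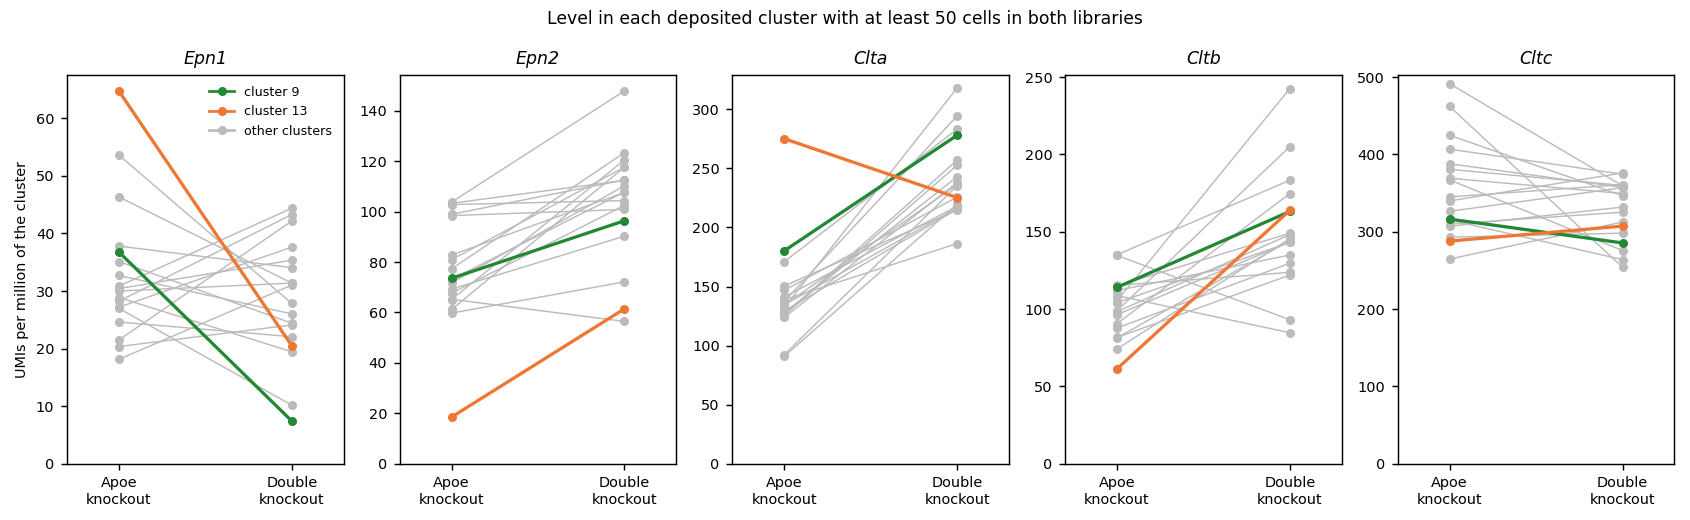
Level of 5 genes (CPM) in each deposited cluster with at least 50 cells in both libraries; each line joins the Apoe knockout and double knockout values of 1 cluster, with clusters 9 and 13 coloured. Clta and Epn2 are each higher in the double knockout library in 17 of 18 lines, Cltc is lower in 10 of 18, and the lowest double knockout value of Epn1 is that of cluster 9.

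In cluster 9, Clta had 49 UMIs, 184 CPM (136 to 243), and 71 UMIs, 282 CPM (220 to 356), a ratio of 1.54 (1.05 to 2.26). Cltb had 30 and 38 UMIs (112 and 151 CPM), a ratio of 1.34 (0.811 to 2.25), and Cltc 85 and 74 UMIs (318 and 294 CPM), a ratio of 0.924 (0.667 to 1.28). Of the 8 genes with enough UMIs in cluster 9, 1 was called higher (Clta) and 1 lower (Picalm), beside 16.0% of 4109 genes tested (7.20% higher and 8.79% lower). Neither call held in cells of at least 1000 UMIs, and in cells of at least 2000 UMIs, with 37 and 5 Clta UMIs, the log2 ratio of Clta was -0.11. All 10 ratios in cluster 9, divided by those in smooth muscle, had intervals that held 1.

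**Figure D4:**
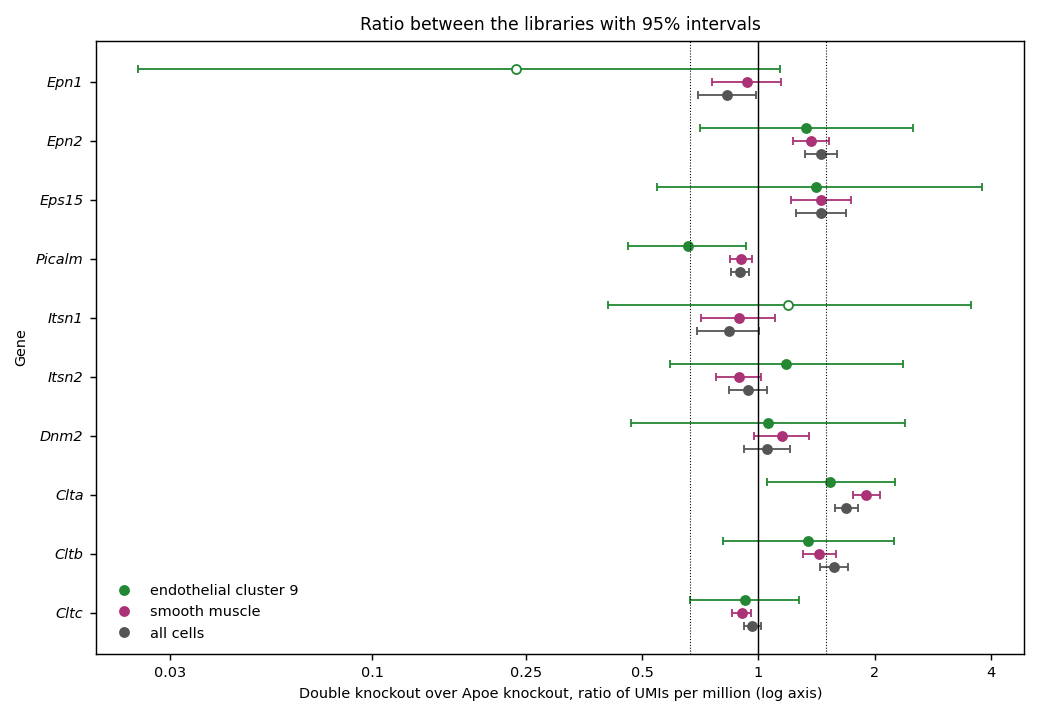
Ratio of each gene's level in the double knockout over the Apoe knockout library (log axis), with 95% intervals, in endothelial cluster 9, smooth muscle and all cells; open points had under 20 UMIs, and dotted lines mark ratios of 1.5 in either direction. Clta lies beyond the upper line in all 3 populations, and Epn1 in cluster 9 has the widest interval.

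After thinning each cell to 1000 UMIs, 11.3% of 1421 Apoe knockout and 21.9% of 1500 double knockout smooth muscle cells had a Clta UMI, with 95 and 2848 shallower cells left out, against 43.9% and 24.5% without thinning. The thinned log2 ratio was 1.05 against 0.93 for all UMIs, so the difference was as large at matched depth. Among 8872 genes of at least 100 UMIs in smooth muscle, ranked by transcript length into 4 bins of equal size, 15.3% of the bin with the shortest transcripts were called higher, and 9.38%, 8.07% and 4.73% in the next 3 bins. The shares called lower were 7.48%, 7.22%, 6.0% and 5.5% in the same order, and Spearman's rho of length and log2 ratio across these genes, which are not independent replicates, was -0.15. Clta is in the shortest bin, Cltb in the second, Epn2 in the third, and Cltc, Picalm and Eps15 in the longest. The genes with a cluster profile most like Clta were the ribosomal protein genes Rpl36a, Rpl38 and Rps13, with r from 0.44 to 0.75. Without the 2 clusters farthest from the median Clta level, r was 0.34, 0.21 and 0.32 in the Apoe knockout library. In the double knockout library it was 0.86, 0.47 and 0.46 without them, against 0.56, 0.52 and 0.44 with them. The likeness thus rested in large part on those clusters in the Apoe knockout library only. The part of transcript length or library preparation in the Clta difference was not tested.

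The light chains also differed between cell types within a library. In Apoe knockout macrophages Clta had 238 UMIs, 275 CPM, and Cltb 53 UMIs, 61.3 CPM, which is 2.15 times (1.86 to 2.47) and 0.593 times (0.441 to 0.783) the smooth muscle level. Clta made up 81.8% (76.9 to 86.0) of the light chain UMIs there, 55.3% (53.1 to 57.6) in smooth muscle and 62.0% (50.4 to 72.7) in cluster 9. By class the Clta order was immune at 265 CPM, EC at 173 CPM, modEC at 155 CPM, SMC at 129 CPM and fibroblasts at 93.8 CPM, and of its 4 steps only that from EC to modEC had an interval that held 1. No step of Clta in the double knockout library, and none of Cltb or Cltc in either, had an interval without 1.

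Endothelial cluster 19, compared with cluster 9 in the double knockout library after its values were seen, had a higher level of Cltb. It had 44 Cltb UMIs in 67 cells, 427 CPM (310 to 573), against 38 UMIs in 287 cells of cluster 9, 151 CPM (107 to 207). The ratio was 2.83 (1.79 to 4.48), while Clta, at 233 CPM against 282 CPM, had a ratio of 0.825 (0.496 to 1.33). Cltb was the only 1 of the 7 genes with enough UMIs that was called, beside 29.9% of 3044 genes tested (16.3% higher and 13.7% lower). The number of calls was thus not above the background. Thinning each cell to 1000 UMIs left 17 and 14 Cltb UMIs and ended the call. Cluster 19 held endothelial markers at 7223 CPM, against 4764 CPM for cluster 9, and smooth muscle markers at 6971 against 28434 CPM. The part of the latter in the Cltb ratio was not tested. The Apoe knockout library had 9 cells of cluster 19, with 3 Cltb UMIs.

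Between cluster 9 and smooth muscle of the same library, none of the 10 genes was called in either library, beside 10.9% of 11261 genes tested (8.33% higher and 2.61% lower) in the Apoe knockout and 11.2% of 10483 (7.29% higher and 3.87% lower) in the double knockout library. The ratios nearest the rule were Clta in the Apoe knockout library, 1.43 (1.05 to 1.91), and Epn1 in the double knockout library, 0.291 (0.0349 to 1.07). The smooth muscle markers that cluster 9 held are given above, and their part in these ratios was not tested.

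A further 97 genes of the pathway, 90 of them in the table, were grouped in 7 lists. In cluster 9, 4 of the 44 with enough UMIs were called higher in the double knockout library and none lower, beside 7.20% higher and 8.79% lower of all 4109 genes tested, so the higher share was near the background. The 4 genes were Ehd1, a recycling endosome ATPase (48.7 and 99.3 CPM, ratio 2.04), the caveolar coat genes Cavin3 (ratio 1.94) and Cavin2 (431 and 735 CPM, ratio 1.71), and the receptor gene Notch1 (63.7 and 127 CPM, ratio 2.00). The 12 endothelial markers of cluster 9 had a median ratio of 1.87 (summed 2588 and 4764 CPM), while macrophage and fibroblast markers were lower, as given above. The part of this shift in the 4 ratios was not tested. No gene of the adaptor complex AP-2 (3 with enough UMIs), of the other adaptors (3) or of the scission and uncoating list (7) was called there. The median log2 ratio of the 44 was 0.09, beside -0.02 over all genes tested.

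In smooth muscle, 6 of 86 pathway genes were called higher and 2 lower, beside 9.87% higher and 7.67% lower of all 11941 genes tested, so neither share was above the background. None of the 5 AP-2 subunits and none of the 18 endosome genes was called. The higher genes were Ston1, an AP-2 binding adaptor (ratio 1.56), the phosphoinositide phosphatases Inpp5f (1.74) and Synj2 (1.63), the endophilin gene Sh3gl1 (1.63), Cavin3 (1.61) and Notch1 (1.50). The lower genes were Hspa8, the chaperone that strips clathrin from vesicles (3644 and 2331 CPM, ratio 0.640), and Ap1b1, a subunit of the Golgi adaptor AP-1 (17.2 and 7.66 CPM, ratio 0.446). Cavin3 and Notch1 were thus called in both populations, which come from the same 2 libraries. The share of all genes called in both was not counted. The median log2 ratio of the 86 was 0.04, beside 0.03 over all genes.

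Between Apoe knockout macrophages and smooth muscle, 23 of 86 pathway genes were called higher and 27 lower, beside 17.0% and 23.3% of all genes. In macrophages the arrestin Arrb2 was at 121 CPM against 3.50 CPM, the cargo adaptor Dab2 at 153 against 15.3 CPM, and the AP-2 subunit Ap2s1 at 187 against 89.8 CPM. The caveolar genes Cav1 (90.2 against 422 CPM) and Cavin1 (148 against 629 CPM) were lower, as was Hip1r (6.94 against 29.9 CPM), which links the coat to actin.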

How the data were processed

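Single-cell libraries of mouse aorta, 1 per genotype, were analysed from the authors' tables. The deposited counts are whole UMIs per cell and gene; the submitters' processing notes name Cell Ranger, Seurat and the mm10 build, without versions. The deposited mitochondrial ratio is a fraction per cell. The deposited class names and cluster numbers are of another kind, assigned by the authors. How doublets were treated is not given in the sources used here, and no caller was run.

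The 4856 Apoe knockout entries were 2428 barcodes, each present in duplicate with the same counts in both copies (0 UMIs differed), and 1 copy was used. The 5489 double knockout barcodes had no copies, and 5 barcodes occurred in both libraries. The libraries held 13304762 and 6853185 UMIs, and 94.6% and 34.0% of their cells had at least 1000 UMIs.

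For each population the UMIs of its cells were added up and expressed per 1000000. With 1 library per group no p-value was computed. Levels carry exact Poisson, ratios exact conditional binomial and shares exact Clopper-Pearson intervals. A count of 0 was set to a floor of 3 UMIs over the population. Endothelial cluster 9, smooth muscle without cluster 15 and macrophage cluster 13 were the compared populations. The named genes are the 10 genes and, of each pathway list, up to 4 genes with the largest log2 ratio, with all called genes of cluster 9 and smooth muscle among them. Likeness was Pearson's r of log2(CPM + 10) over clusters of at least 50 cells, among genes of at least 50 CPM in both libraries, ranked by the lower of the 2 values. Simulated data with known ratios were used to test this rule of size. Only genes of at least 100 UMIs were changed in them, and counting error was their only spread. They therefore do not test whether a changed gene of fewer UMIs is called, nor spread between libraries. Analysis used Python 3.11.15, numpy 2.4.6, pandas 2.3.3, scipy 1.17.1 and matplotlib 3.10.9. The genes, lists, populations and rules were chosen with earlier results of these data known, and the comparisons of macrophages with smooth muscle and of cluster 19 with cluster 9 after their values were seen.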

Additional observations from a re-analysis of the deposited data

How the results depend on the processing

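Alternatives changed 1 choice at a time: cells of at least 1000 UMIs and under 10% mitochondrial UMIs, thinning each cell to 1000 UMIs, a total without mitochondrial and ribosomal protein genes, median-of-ratios scaling, the mean of cells (a rule of size without an interval), at least 100 UMIs, a ratio of at least 2, and the whole EC class. Cells of at least 2000 UMIs and EC clusters 9 and 19 together were chosen after seeing the data. Of the single-gene log2 ratios, 539 kept their value within counting error, 35 moved and 2, called as reported, changed sign. These 2 were Picalm in cluster 9, thinned (0.20), and Clta in cluster 9, cells of at least 2000 UMIs (-0.11). The 539 include values that could not change. The minimum of 100 UMIs and the ratio of at least 2 alter calls only. Use of every deposited entry, over all cells, repeats the same counts. Between the libraries in cluster 9 and smooth muscle, 9 of 17 ratios not called as reported also changed sign under some alternative, such as Eps15 in cluster 9 (0.50 to -0.33). The log2 ratio of Clta in smooth muscle was 0.93 and ran from 0.86 to 1.05. That of Epn1 in cluster 9 was -2.08 and ran from -2.39 to -0.99 over the 9 of 10 alternatives that gave a value. Of the counts of called genes and shares, 79 values held and 47 moved.

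Between the libraries in cluster 9, 2 of the 10 genes were called, against 0 in cells of at least 1000 UMIs, thinned, at a ratio of at least 2 and in cells of at least 2000 UMIs; the pathway genes called went from 4 to 2 thinned, 1 at 100 UMIs, 1 at a ratio of 2 and 9 in the whole EC class. In smooth muscle, 1 of the 10 genes became 2 in cells of at least 1000 UMIs, 3 thinned, 2 by the mean of cells, 2 in cells of at least 2000 UMIs and 0 at a ratio of 2, where 8 pathway genes became 1. Over all cells, 2 became 4 in cells of at least 1000 or 2000 UMIs and 0 at a ratio of 2, where 11 pathway genes became 4. Cluster 9 over smooth muscle in the Apoe knockout library went from 0 to 1 gene by the mean of cells, with pathway genes from 12 to 32, and to 6 thinned. In the double knockout library it went from 0 to 1 in cells of at least 1000 UMIs and thinned and to 2 by the mean of cells, with pathway genes from 13 to 8 thinned, 33 by the mean of cells, 8 at a ratio of 2 and 7 in cells of at least 2000 UMIs. Macrophages over smooth muscle went from 5 to 3 genes thinned and at a ratio of 2, with pathway genes from 50 to 21 and 31. Cluster 19 over cluster 9 went from 1 gene to 0 thinned and at 100 UMIs and 3 by the mean of cells, with pathway genes from 9 to 4 thinned, 21 by the mean of cells, 2 at 100 UMIs and 3 in cells of at least 2000 UMIs. The cause was not tested, except that a higher minimum or ratio leaves fewer genes to call.

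Shares of smooth muscle cells with a UMI, at 1000 UMIs per cell, were 8.09% and 10.2% for Epn2 and 11.3% and 21.9% for Clta in the Apoe knockout and double knockout libraries. Without thinning they were 32.7% and 12.1%, and 43.9% and 24.5%; at 500 UMIs, 4.22% and 4.81%, and 5.47% and 11.5%. No paired analysis was possible because each group has 1 library.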
